A study of Homo sapiens with 19 samples.

Results

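Introns longer than 100 kb were followed through the sequencing reads that cross the junction between their flanking exons. A junction was taken when GENCODE 29 annotates its intron, the intron is longer than 100000 nt, and its reads sum to at least 20 over 19 RNA libraries of 3 human cell lines. The members were therefore selected on length and on measured reads, and neither is a finding. The rule kept 1196 introns in 807 gene names, of 172624 annotated introns with at least 20 reads. GENCODE 29 holds 361515 introns, of which 4807 are over 100 kb, and 2483 of those had at least 1 read. The longest junction in any file spans 499999 nt, so the 73 annotated introns of 500 kb or more could not be seen.

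All libraries were depleted of ribosomal RNA. A375, a melanoma line, gave 1 library each of total RNA, of nuclear RNA (the pellet left after lysis with Triton X-100 in low salt) and of cytoplasmic RNA (the supernatant). The embryonic kidney line HEK293 and the embryonic stem cell line HUES66 each contributed 1 untreated wild-type library, for which the labels name no drug or time. The other 14 libraries are HUES66 cells given 1 µg/ml doxycycline, controls included. The controls were taken at 24 hr (replicate 2), 48 hr and 96 hr. Total knockdown of RBFOX2 was taken at 24 hr (replicate 1), 48 hr and 96 hr. Knockdowns of its N-short and N-long isoforms were taken at 24 hr (replicates 1 and 2), 48 hr and 96 hr. RBFOX2 is an RNA-binding protein that regulates alternative splicing, and the series title names the RNA-cutting enzyme Cas13d as the knockdown tool. Libraries of the same time and, at 24 hr, the same replicate form a library set. The labels do not say whether libraries came from separate cultures, so p-values measure only the spread between these libraries.

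Introns are removed while RNA polymerase transcribes the gene, and the exons on either side stay apart until the polymerase has crossed the whole intron. Very long introns are typical of genes of neural adhesion, signalling and transcription control, and often follow the first exons of a gene. Some are removed in steps, through splice sites inside the intron, and many hold alternative promoters or alternative first exons.

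The exon ends that the long introns join are shown for the cases on which the results turn. Each sequence is the last 15 bases of the upstream exon in lower case and the first 15 bases of the downstream exon in capitals, on the transcript strand, from GENCODE 29 transcripts (GRCh38). The first pair shows the junction of RBFOX2 over 100 kb and a 30187-nt intron that splices another first exon to the same downstream exon.
RBFOX2 long intron, chr22:35810005-35938846, minus strand: gcgcgggacagccagGGTAACCAGGAGCCG
RBFOX2 shorter intron, chr22:35810005-35840191, minus strand: aaaatggtaactcagGGTAACCAGGAGCCG
The next 3 pairs share a 5′ splice site and end at neighbouring 3′ splice sites, so that the capitals of the pair differ by a few bases.
NR6A1 shorter intron, chr9:124554571-124733307, minus strand: ttgacccaggcactaTTTCTGTTTCAGATG
NR6A1 longer intron, chr9:124554559-124733307, minus strand: ttgacccaggcactaATGATCGGGCTGAAC
ABL1 shorter intron, chr9:130714456-130854063, plus strand: tttttgtggaacatgAAGCCCTTCAGCGGC
ABL1 longer intron, chr9:130714456-130854066, plus strand: tttttgtggaacatgCCCTTCAGCGGCCAG
ANKRD11 shorter intron, chr16:89317079-89418283, minus strand: tcagctatggaatcgCAGACGGTTGATGAT
ANKRD11 longer intron, chr16:89317076-89418283, minus strand: tcagctatggaatcgACGGTTGATGATGAA
The last 6 are the introns described most fully for the A375 fractions, the cell lines and the time points.
NEGR1 first intron, chr1:71935312-72282318, minus strand: cacggcggtgcttagGTGTTATTTGGAAGA
FARS2 last intron, chr6:5613321-5771290, plus strand: gtttgtacatccaaaGACGCACAAGACCAG
CDYL first intron, chr6:4773179-4891712, plus strand: acgggagcaggtcagGTTGAAAGGATTGTT
CAMTA1 upstream intron, chr1:6825211-7091303, plus strand: tggaacactaatgagGAAATTGCAGCTTAT
CAMTA1 downstream intron, chr1:7091372-7249490, plus strand: ctcccctaagacaagACCACAGAATGGCTC
FAT3 first intron, chr11:92355405-92524633, plus strand: tagacgacgagagtgGGGTCATCACTGCCG

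The libraries held 6499183 to 27937149 junction reads each, of which 96.7% to 98.3% lay on annotated introns. Levels are given as CPM, read counts scaled to the annotated junction reads of the library in the usual way. RBFOX2 junctions summed to 121 to 128 CPM in the 3 controls, 49.2 to 80.4 CPM in total knockdown, 109 to 123 CPM in N-short knockdown and 74.0 to 89.4 CPM in N-long knockdown. The stem cell gene POU5F1 was at 888 to 1240 CPM in the 15 HUES66 libraries and under 1 CPM in A375 and HEK293. SOX10, a melanocyte-lineage factor, was at 103 CPM in A375, where the pigment genes MLANA and TYR had no read. Of the same marker list, MITF was at 40.0 CPM, S100B at 15.5 CPM and DCT at 0.366 CPM in A375 total RNA. PMEL went the other way, at 0.488 CPM there and 35.5 to 70.5 CPM in the HUES66 libraries. Spliced FTX, a nuclear long noncoding RNA, was at 37.4 CPM in nuclear and 4.73 CPM in cytoplasmic A375 RNA.

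The long introns lay early in their transcripts. They were the first intron of an annotated transcript in 49.25% of cases, against 39.45% for introns of 10 to 100 kb, 25.56% for 1 to 10 kb and 27.58% for under 1 kb. The first or the second intron accounted for 73.66%. By location, 884 separated coding exons, 180 lay upstream of the start codon, 129 were in noncoding transcripts and 3 lay downstream of the stop codon. Protein-coding genes held 1112 of them. Their median length was 137998 nt, 221 were over 200 kb and 62 over 300 kb. Read totals were low, with a median of 131.5 over 19 libraries. 520 introns had under 100 reads and 109 had at least 1000. At the length threshold the nearest members were in CUX1 (100021 nt, 1315 reads), SBF2 (100027 nt, 563 reads) and MYO1E (100048 nt, 914 reads). The nearest introns left out were in AL365295.1 (99975 nt, 39 reads), PLCE1 (99921 nt, 134 reads) and CDH12 (99918 nt, 67 reads). At the read threshold, 11 introns had 20 reads and 20 introns just outside had 19.

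The exon bases and the reading phase at long introns were set beside those of the shorter classes. The upstream exon ended in G at 82.36% of long introns and at 80.76% to 82.84% in the shorter classes. The downstream exon began with G at 45.82%, against 47.15% to 49.97%. Of the 884 coding long introns, 40.27% fell after the first base of a codon, against 31.32% to 34.1% in the shorter classes. Only 16.4% fell after the second base of a codon, against 22.78% to 23.9%. The remaining 43.33% fell between codons, against 43.12% to 44.98%. Introns that share a gene or a splice site are not independent, and no test was made.

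Relative use states how many reads an intron has beside the rest of its gene. It is the junction's reads as a percent of the mean over the other annotated introns of that gene with at least 20 summed reads. It could be computed for 1152 members, since 9 members belong to 2 or more gene names and 35 have no other such intron. With the 19 libraries pooled, the long introns had a median relative use of 78.75% (25th to 75th percentile 41.98% to 118.5%). Introns of 10 to 100 kb had 82.55%, 1 to 10 kb 103.4% and under 1 kb 105.8%. At least 100% was reached by 401 long introns (34.81%). Values differed by position in the transcript. Long introns that are first in a transcript had a median of 73.04% and later ones 87.7%. For introns of 10 to 100 kb the values were 60.14% and 94.82%, so among first introns those over 100 kb had the higher pooled median. By library this order was not general. In A375 total RNA first introns had 51.69% over 100 kb and 54.0% at 10 to 100 kb, and in cytoplasmic RNA 48.39% and 58.04%. The pooled order was seen in A375 nuclear RNA (56.59% and 51.22%), HEK293 (54.55% and 45.24%) and HUES66 wild type (71.43% and 59.07%).

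**Figure D1:**
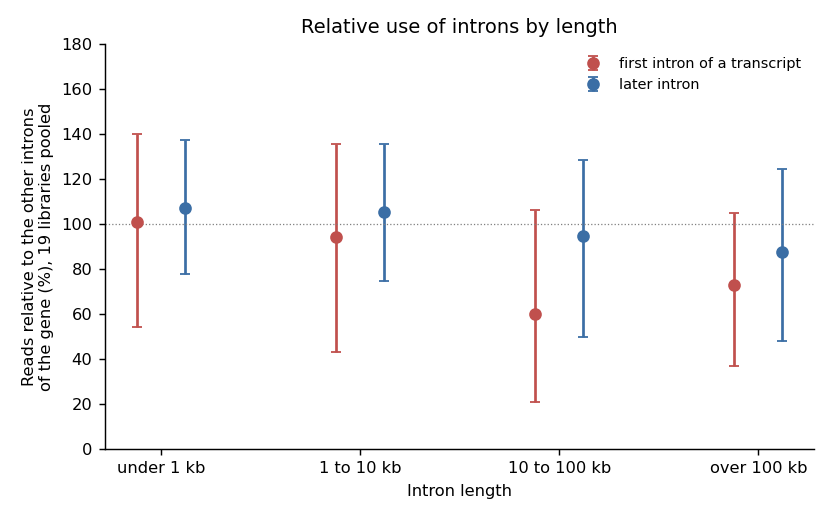
Pooled relative use (percent of the mean of the gene's other introns, y axis) by intron length class (x axis), as the median with a bar from the 25th to the 75th percentile over introns, for first and later introns. First introns have the lower median in every class, and over 100 kb the medians are 73.04% and 87.7%.

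The median relative use of the long introns was lower in A375 and HEK293 than in HUES66. It was 61.6% in A375 total RNA, 60.3% in nuclear RNA, 55.9% in cytoplasmic RNA and 63.2% in HEK293, with 1 library each. HUES66 wild type had 75.9%. The doxycycline-treated groups had 73.3% ± 3.91 in control (SD, n = 3), 73.9% ± 1.81 in total knockdown (n = 3), 72.6% ± 3.96 in N-short knockdown (n = 4) and 70.9% ± 3.36 in N-long knockdown (n = 4). The 4 groups overlapped, and the 14 libraries ran from 67.0% to 77.4%. Among introns with at least 100 summed reads the medians were 84.4% in A375 total RNA, 81.8% in HEK293 and 96.3% in HUES66. Of the 19 libraries 15 are HUES66, so the minimum of 20 summed reads favours introns spliced in that line.

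The share of annotated reads that lay on the 1196 introns was highest in nuclear RNA. It was 0.203% there (95% Wilson interval 0.199% to 0.206%), 0.117% in cytoplasmic RNA (0.115% to 0.118%) and 0.169% in A375 total RNA. Such intervals cover counting error only, since the reads carry no molecular identifiers. HEK293 had 0.144% and HUES66 wild type 0.170%. In the doxycycline series the share was 0.199% to 0.202% in the 4 libraries at 48 hr, 0.177% to 0.185% at 96 hr and 0.167% to 0.179% at 24 hr. The 48 hr libraries thus lay above all other HUES66 libraries, whatever the knockdown.

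The 10 introns with most reads all had a relative use of at least 100% in HUES66 wild type. They were ranked by reads that come mostly from HUES66, and the same reads enter relative use, so the ranking favours high values. In the pooled libraries that of NR6A1 was below 100%, at 93.92%. Over all long introns, 34.81% reached 100% in the pooled libraries. JARID2, which encodes a Polycomb-associated chromatin protein, had 9866 reads on its 127532-nt first intron. Its level was 39.0 CPM in HUES66 and 40.3 to 60.4 CPM in the doxycycline series, against 8.01 CPM in HEK293 and 3.66 CPM in A375 total RNA. Its relative use was closer between the lines, at 150% in HUES66, 157% in HEK293 and 146% in A375. HMGA2, a chromatin-binding protein, had 7665 reads on an intron of 112813 nt, which was at 34.5 CPM in A375 total RNA, 47.6 CPM in cytoplasmic and 27.5 CPM in nuclear RNA, 30.9 CPM in HUES66, 25.9 to 35.9 CPM in the doxycycline series and 15.3 CPM in HEK293. It had a relative use of 183% to 224% in the 3 lines. NLGN4X, a synaptic adhesion protein, had 4246 reads and the highest pooled relative use of the 10, at 478%, with no read in HEK293. NR6A1, an orphan nuclear receptor of early embryos, had 3966 reads, 22.7 CPM in HUES66 and under 1 CPM in the other lines. Others were in IGF2BP2 and MSI2 (RNA-binding proteins), TCF7L1 (a Wnt pathway repressor), SSBP3 (a transcription cofactor) and ADCY2 (an adenylyl cyclase). These 5 had 3150 to 3938 reads and pooled relative uses of 106% to 229%. ADCY2 had no read in the 3 A375 libraries.

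The longest members described here lie in genes of the nervous system and had few reads in any single library. FGF13, which encodes an intracellular fibroblast growth factor, had the longest at 495130 nt, with 111 reads and a relative use of 10.7%. The cadherin CDH4 (488625 nt, 115 reads) was at 91.2% and the neural catenin CTNNA2 (483413 nt, 176 reads) at 99.5%. NRG3, a neuregulin, had 54 reads over 482575 nt and 208%, beside only 1 other intron. FGF13 and NRG3 were at 0.641 and 0.855 CPM in HEK293 and at 0.474 and 0.182 CPM in HUES66 wild type.

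Alternative 3′ splice sites a few bases apart occurred in 9 pairs of long introns, each in a different gene. The distance was a multiple of 3 in 8 pairs and exactly 3 nt in 6. In NR6A1 the 3′ splice sites lie 12 nt apart, and the shorter intron took 3966 of the reads against 253, or 90.4% to 95.6% in the 15 libraries with at least 20 reads. In ABL1, a tyrosine kinase, the shorter intron took 761 reads against 40 (95.01%). ANKRD11, a chromatin regulator, divided its reads more evenly, with 711 against 549 and a share of 41.8% to 67.7% over 19 libraries. CHCHD6, a mitochondrial protein, had the opposite preference, with 105 reads on the shorter and 922 on the longer intron. Reads at sites 3 nt apart depend on how the aligner places them. More widely, 53 of the 5′ splice sites served 2 or more long introns (111 introns) and 60 of the 3′ splice sites did so (127 introns).

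In A375 the question was whether the junctions of long introns divide between nucleus and cytoplasm as those of the other introns of their genes do. The ratio of relative use, nuclear over cytoplasmic, was taken as a log2 value with 0.5 added to reads, for introns whose reads in the fractions sum to 20 or more. There is 1 library of each fraction, so no test was possible. Among 414 long introns the median was 0.06, against 0.00 over all 107890 introns. The spread was wider than elsewhere. At least 2-fold higher use in nuclear RNA was seen in 35 long introns (8.454%), where 2.54% of all introns passed. At least 2-fold higher use in cytoplasmic RNA was seen in 37 (8.937%), where 3.87% of all introns passed. Long introns also had fewer reads, with a median of 131.5 over 19 libraries against 516 for introns of 1 to 10 kb. With at least 50 reads in the fractions, 14 of 218 long introns were 2-fold nuclear and 11 cytoplasmic. The share of all introns at that minimum was not computed. The part of depth in these shares was not tested. In reads alone, the long introns had a median log2 CPM ratio of 0.50, against 0.19 over all introns.

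First and later long introns differed in direction, a split made after the values were seen. The median was 0.21 for 208 long introns that are first in a transcript and -0.09 for 206 later ones, which became 0.01 against the median in place of the mean of the other introns. Of the first long introns, 26 (12.5%) were at least 2-fold nuclear and 11 (5.288%) cytoplasmic, beside 3.109% and 4.646% of first introns of all lengths. Of the later ones, 9 (4.369%) were nuclear and 26 (12.62%) cytoplasmic, beside 2.335% and 3.576% of later introns of all lengths. With at least 50 reads, 10 of 106 first long introns were nuclear and 5 cytoplasmic, and 4 and 6 of 112 later ones. Shares over introns of all lengths were not computed at that minimum. In the shorter classes the medians of first introns lay between -0.03 and 0.01. In the same way, 81 pairs of consecutive long introns in 59 genes were compared within the gene. The upstream intron was the more nuclear in 54 of them, with a median difference of 0.35. Each intron of a pair counts among the other introns of the gene for its partner, which pushes their values apart. In some genes adjoining pairs share an intron, so the pairs are not independent. Pairs of shorter introns were not compared.

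NEGR1, a neural adhesion protein, has 3 long introns in the fraction data. In transcript order they had 26, 27 and 18 reads in nuclear RNA and 3, 13 and 20 reads in cytoplasmic RNA. Their relative use was 151%, 159% and 95.7% in the nucleus and 23.1%, 118% and 208% in the cytoplasm, so the cytoplasmic use rose along the gene. FARS2, a mitochondrial phenylalanyl-tRNA synthetase, showed the same order in 3 introns, with 11, 7 and 3 nuclear reads and 12, 34 and 50 cytoplasmic reads. The ratio of relative use fell from 3.80 (exact 95% interval, for counting error, 1.41 to 10.1) at its first to 0.19 (0.0316 to 0.549) at its last intron. A further FARS2 intron, from an alternative first exon, had 0 nuclear and 1 cytoplasmic read. Within PTCHD4, a patched-domain protein, 2 introns leave the same 5′ splice site. The longer, of 128697 nt, had 13 nuclear and 7 cytoplasmic reads, the highest ratio of all (7.0, 2.17 to 26.2), and the shorter, of 106698 nt, had 4 and 27 (0.236, 0.0488 to 0.757). Each of these 2 introns counts among the other introns of the gene for the other, beside 1 shorter intron with 9 nuclear and 25 cytoplasmic reads. Their ratios are thus pushed apart by the measure and are not independent.

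The other introns named by the rule for this comparison were the following. Toward the nucleus they were PCLO, a presynaptic scaffold, with 28 nuclear and 14 cytoplasmic reads (ratio 4.88, 2.45 to 10.5), and BTBD11 with 10 and 12 (3.58, 1.34 to 9.22). Toward the cytoplasm they were ARL15, a small GTPase, with 2 and 55 reads (0.121, 0.0112 to 0.401), PALM2-AKAP2 with 3 and 34 (0.183), ENOX2 with 1 and 36 (0.197) and the noncoding LINC00511 with 12 and 91 (0.217). Of the 5 introns at the nuclear end, those of NEGR1, FARS2, PCLO and BTBD11 are first in at least 1 annotated transcript, although PCLO has 2 introns with reads before it. At the cytoplasmic end, those of ARL15, FARS2 and PALM2-AKAP2 lie at positions 4, 6 and 7, while ENOX2 is at position 2 and LINC00511 at position 1.

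The shorter introns on either side of a long intron were then compared, a measure that does not use the long intron's reads. Among 195 long introns in 153 genes with at least 20 fraction reads on each side, the introns before the long intron were more nuclear than those after it in 142 (72.8%). The median log2 difference, before minus after, was 0.44 (25th to 75th percentile -0.06 to 0.87). The same difference was 0.13 around introns of 10 to 100 kb, 0.04 around 1 to 10 kb and 0.03 around introns under 1 kb. With at least 100 reads on each side it was 0.46, and 82 of 95 long introns (86.3%) had the more nuclear reads before them. With 1 long intron per gene it was 115 of 153 (75.2%). The long junction itself was more nuclear than the introns before it in 65 of the 195 cases (median -0.31) and more nuclear than those after it in 119 (median 0.10). TCF7L2, a Wnt pathway transcription factor, had 289 nuclear and 419 cytoplasmic reads before its 101057-nt intron, 57 and 133 on it, and 480 and 1218 after it. UTRN, the dystrophin relative utrophin, had 2505 and 1259 reads before its downstream long intron (chr6:144577289-144678405), 50 and 34 on it, and 837 and 512 after it. This long junction was less nuclear than either side. The upstream long intron of UTRN had 49 nuclear and 25 cytoplasmic reads.

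**Figure D2:**
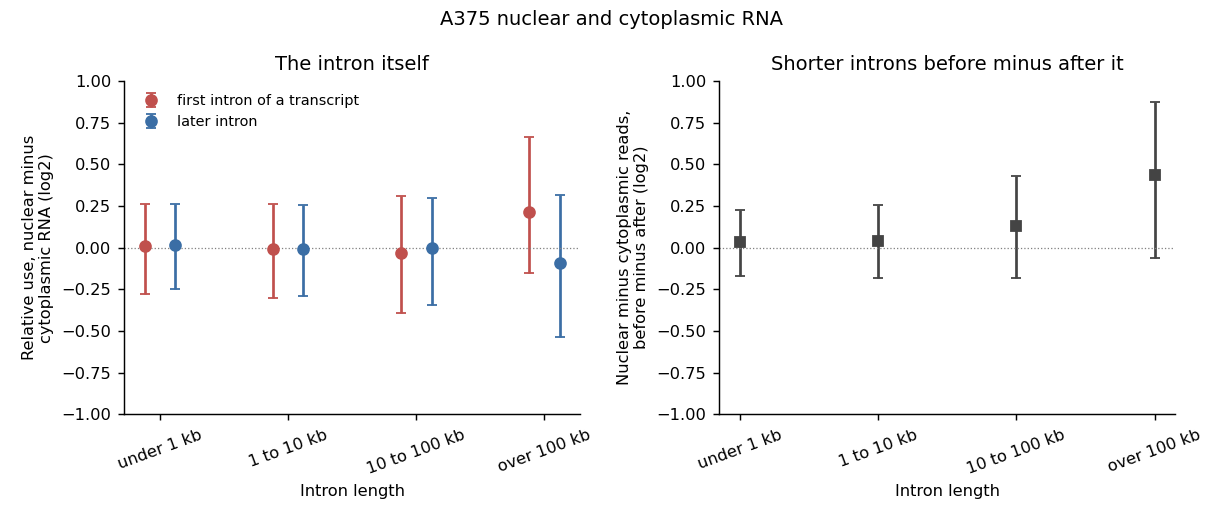
Left, log2 relative use in nuclear minus cytoplasmic A375 RNA (y axis) by intron length class (x axis) for first and later introns. Right, the log2 nuclear minus cytoplasmic reads of shorter introns before minus after the intron. Points are medians and bars run from the 25th to the 75th percentile over introns. Over 100 kb the medians are 0.21 and -0.09 on the left and 0.44 on the right.

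The nuclear library held 6282140 annotated reads and the cytoplasmic library 21968982, so counting error is larger in the nucleus. AXL was at 754 CPM in nuclear and 118 CPM in cytoplasmic RNA, and FN1 at 552 and 20.1 CPM, so abundant coding genes also differed between the fractions. Their part in the result was not tested.

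Between the cell lines, relative use was compared in 447 long introns with at least 20 reads in the 3 libraries of total RNA together. Each line was set against the mean of the other 2, again with 1 library each and no test. In A375 total RNA 20 long introns were at least 2-fold higher (4.47%, beside 2.53% of all introns) and 53 at least 2-fold lower (11.9%, beside 3.87%). In HEK293, 24 were higher (5.37%, beside 2.21%) and 44 lower (9.84%, beside 4.01%). In HUES66, 30 were higher (6.71%, beside 1.94%) and 24 lower (5.37%, beside 2.82%). The HUES66 library held 27400408 annotated reads, that of A375 total RNA 8202751 and that of HEK293 9361382. The minimum of 20 reads summed over the lines was thus met most easily through HUES66. It favours introns that are high there and low in the other lines, as does the rule for members. The same minimum was used for all introns, and its part in these shares was not tested. The shares of long introns were the higher in each line and direction, but long introns also had fewer reads (a median of 131.5 over 19 libraries, against 516 for introns of 1 to 10 kb), and the part of depth in these shares was not tested. By level, of 648 long introns with 20 reads in the lines, 261 were highest in HUES66, 200 in A375 and 187 in HEK293. The same count was not made over all introns, and the minimum of 20 reads favours HUES66 here too. No trait of long introns can be read from these counts.

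CDYL, a chromodomain protein that reads repressive chromatin, showed the largest difference. Its 118534-nt first intron, annotated in a noncoding transcript, had 408 reads in HUES66. A375 had 0 reads on it beside 69 on the other introns of the gene, and HEK293 had 0 beside 320. The relative use was 230% (Wilson interval 205% to 258%) in HUES66, and the intervals ended at 33.4% in A375 and 7.20% in HEK293. All 14 doxycycline-treated HUES66 libraries had 123 to 223 reads on it and a relative use of 179% to 280%, while both A375 fractions had 0 reads. MAGI2, a synaptic scaffold, had 40 reads in HUES66 and 0 in the other lines, but its other introns had only 42 reads in A375 and 20 in HEK293. The intervals of MAGI2 overlapped, at 170.9% to 327.6% in HUES66 and up to 192.1% in A375 and 403.4% in HEK293. Overlap of intervals is no test, and whether the lines differ was not tested.

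In HEK293, AUTS2, a neurodevelopmental regulator, had 21 reads and a relative use of 106% (68.9% to 164%) on its 299323-nt first intron. HUES66 had 24 reads and 18.4% (12.4% to 27.4%), and A375 had 0 reads beside 29, whose interval overlapped. DTNA, a dystrophin-associated protein, had 50 reads and 148% in HEK293, 81.3% in HUES66 and 9.29% in A375, and the HEK293 and HUES66 intervals overlapped. GALNT13, a glycosyltransferase, had 13 reads and 242% in HEK293, 83.2% in HUES66 and 54.5% in A375. DDAH1 was at 25.6% in HEK293, 12.9% in A375, where the interval overlapped, and 2.00% in HUES66. SOX5 was named from 5 reads in HEK293, its interval overlapped that of HUES66, and its log2 ratio of 2.02 became 0.33 when the doxycycline-series controls stood in for HUES66 wild type.

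In A375, EPB41, a membrane skeleton protein, had 15 reads and 107% (64.5% to 179%), against 49.8% (32.1% to 77.1%) in HEK293, which overlapped it, and 13.8% (8.58% to 22.1%) in HUES66. FRMD4B had 17 reads and 223% (137% to 366%), against 0 reads in HEK293 and 76.2% (40.97% to 142%) in HUES66, which overlapped it. PALLD, an actin-binding protein, was at 66.1%, against 17.7% in each other line, with an interval that overlapped that of HUES66. PAM was at 19.8% against 5.43% and 5.34%, and its interval overlapped those of both other lines. The fifth A375 intron, the longer NR6A1 intron, had 0 reads in A375 and HEK293 and 35 in HUES66, and its rank rests on the added 0.5 reads alone. The other introns named for HUES66 were in OSBP2 (16 reads, 196%), RBMS3 (10 reads, 241%) and ARHGAP44 (31 reads, 76.0%). HEK293 had 76.6%, 52.0% and 34.2% on them, with intervals that overlapped those of HUES66, and A375 had 12.5%, 70.7% and 0%, where only that of RBMS3 overlapped. With the doxycycline-series controls in place of wild type the log2 ratios were 0.70 for RBMS3, from 1.9, and 0.89 for ARHGAP44, from 1.86. More than 20 reads in the line it is named for were had by CDYL, MAGI2, AUTS2, DDAH1, DTNA and ARHGAP44.

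**Figure D3:**
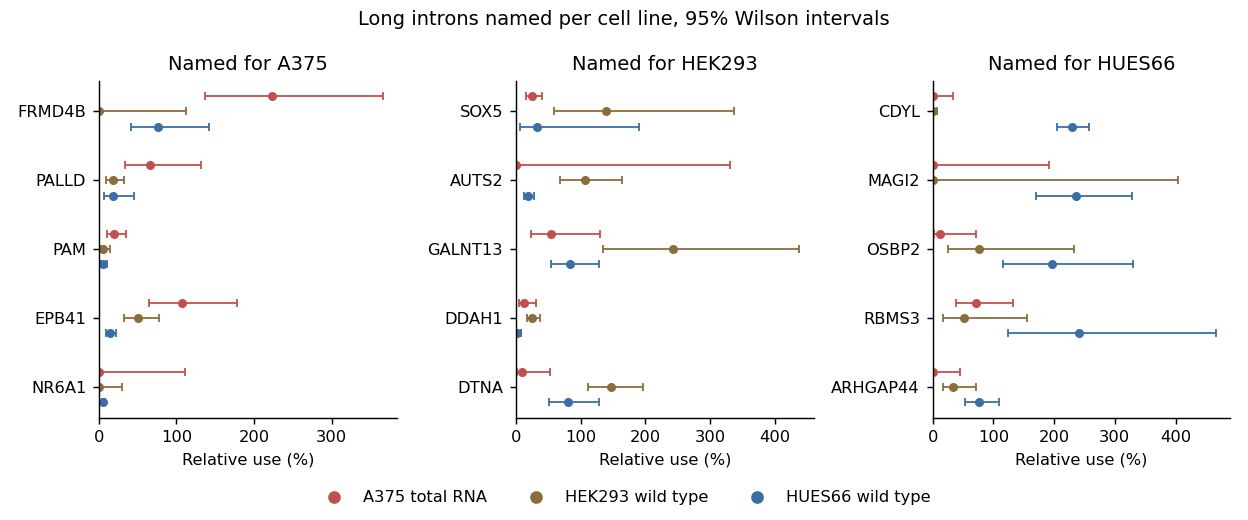
Relative use (percent, x axis) of the 5 long introns named for each cell line in total RNA of A375, wild-type HUES66 and HEK293 (a single library of each), with 95% Wilson intervals as bars. CDYL is the clearest case, at 230% in HUES66 and 0 reads elsewhere, and NR6A1 has 0 reads in the line it is named for.

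Knockdown of RBFOX2 was tested with edgeR's quasi-likelihood fit over all annotated junctions, in the 14 doxycycline-treated libraries with terms for library set and knockdown. Of the long introns, 599 passed the filter on low counts among 119177 junctions tested for relative use, and 614 among 120379 tested for reads. The others had too few reads and are not described by these counts. No long intron changed in relative use against control at an adjusted p of 0.05. Over all junctions 0.0646% passed in total knockdown, 0.00587% in N-short knockdown and 0.0269% in N-long knockdown. At an unadjusted p of 0.05, 25, 20 and 25 of the 599 long introns passed in these contrasts, or 4.17%, 3.34% and 4.17%, near the 3.42%, 3.02% and 3.18% of all junctions. limma's diffSplice called 0 as well. The median log2 differences over the long introns were 0.00, 0.01 and 0.01.

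The intron of RBFOX2 itself was the only long intron to change. It spans 128842 nt, separates coding exons and is the first intron of at least 1 annotated transcript. Its relative use in the controls was 61.0% at 24 hr, 87.4% at 48 hr and 62.2% at 96 hr. In total knockdown it was 53.3%, 69.4% and 64.8% at these times. In N-short knockdown it was 97.7% and 96.5% in the 24 hr replicates, 97.4% at 48 hr and 89.4% at 96 hr. In N-long knockdown it was 30.5% and 48.1% in the 24 hr replicates, 36.7% at 48 hr and 31.0% at 96 hr. The N-long libraries all lay below the 10 others, and the N-short libraries above all of them. The group values were 70.2% ± 14.9 in control (n = 3), 62.5% ± 8.28 in total knockdown (n = 3), 95.3% ± 3.94 in N-short knockdown (n = 4) and 36.6% ± 8.20 in N-long knockdown (n = 4).

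**Figure D4:**
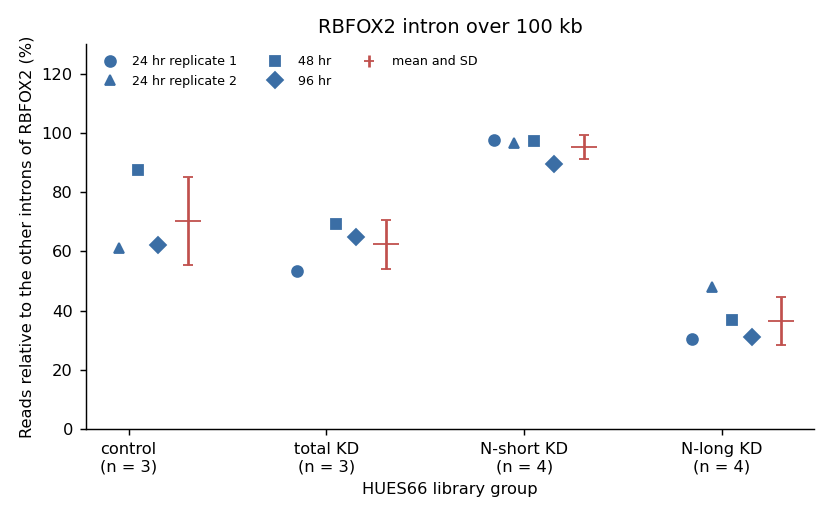
Relative use of the RBFOX2 intron over 100 kb (percent, y axis) in each doxycycline-treated HUES66 library, by group (x axis) and with marker shapes for the library sets. Red bars are the mean and SD. N-long knockdown lies at 30.5% to 48.1% and N-short knockdown at 89.4% to 97.7%.

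N-long against N-short knockdown, the relative use of this intron fell by 1.36 on the log2 scale (SE 0.204, edgeR adjusted p = 9.43e-06), the only such call among long introns where 0.0201% of all junctions passed. At an unadjusted p of 0.05, 20 long introns (3.34%) passed in this contrast, beside 3.11% of all junctions. N-long against control it was lower by a log2 value of -0.92 (SE 0.231), with an adjusted p of 0.224 in edgeR. That call depends on the fit. The adjusted p was 0.0024 with HUES66 wild type as a control of the 24 hr replicate 1 set, and 0.0169 with the intron's and the other reads as paired columns. Total knockdown against control gave -0.12 (SE 0.231, adjusted p = 1.00). The relative use of the intron compares it with other RBFOX2 introns, which are themselves targets of the knockdown.

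In reads, the RBFOX2 intron was at 4.68 ± 0.955 CPM in control, 2.36 ± 0.833 CPM in total knockdown, 5.80 ± 0.489 CPM in N-short knockdown and 1.59 ± 0.320 CPM in N-long knockdown. It fell by 1.49 (log2) in N-long knockdown against control (SE 0.199, edgeR adjusted p = 1.62e-07), where 0.0449% of all junctions passed. It fell by 1.87 in N-long against N-short knockdown (SE 0.174, adjusted p = 1.23e-14), where 0.0307% passed. Its fall by 0.92 in total knockdown (SE 0.202, adjusted p = 0.00558), where 0.447% of junctions passed, was lost in DESeq2 (adjusted p = 0.579), without the total knockdown library of 24 hr (0.122) and without the control of 48 hr (0.229). No long intron changed in reads in N-short knockdown, where 0.0116% of junctions passed and 30 long introns (4.89%) had an unadjusted p under 0.05, beside 4.56% of all junctions. DESeq2 also called 0 there.

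The RBFOX2 long intron shares its 3′ splice site with introns of 30187 nt (409 reads over 19 libraries) and 26315 nt (112 reads), beside 936 reads of its own. Outside the doxycycline series its relative use was 86.0% in A375 total RNA, 67.3% in cytoplasmic RNA, 61.5% in HEK293 and 91.1% in HUES66 wild type. In nuclear RNA it was 151%, from 30 reads, the highest of the 19 libraries.

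Time was read from 96 against 48 hr, with 4 libraries at each time, 1 of each group. Each time is 1 library set, so time and library set cannot be told apart. In relative use 9 of 599 long introns changed (1 higher, 8 lower) in edgeR, or 1.50%, where 1.15% of all junctions passed. The share of long introns was near this background. Without the library set as a block 3 remained, both of CAMTA1 and that of TMEM161B-AS1. Leaving out 1 library of these times gave 4 to 7 calls. There were 4 without N-long knockdown at 48 hr, without the control or without total knockdown at 96 hr, and 5 without N-short knockdown at either time or N-long knockdown at 96 hr. Of the 9, the downstream CAMTA1 intron alone kept its call in every such fit.

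CAMTA1, a transcription activator of the nervous system, has consecutive long introns that fell together, on either side of 1 exon. The upstream one, of 266093 nt, had a relative use of 54.3%, 35.9%, 34.7% and 49.5% at 48 hr (control, total, N-short and N-long knockdown) and 20.1%, 10.7%, 16.6% and 11.5% at 96 hr. It fell by 1.54 on the log2 scale (SE 0.369, edgeR adjusted p = 0.0141). The downstream one, of 158119 nt, fell by 1.82 (SE 0.395, adjusted p = 0.00349), from 22.0% to 51.4% at 48 hr to 5.35% to 20.1% at 96 hr. These rest on 62 and 59 reads at 48 hr and 14 and 11 at 96 hr. At 24 hr the upstream intron was at 3.22% to 13.97% in replicate 1 and 31.9% to 54.6% in replicate 2. The 24 hr sets thus differed from each other as much as 48 and 96 hr did.

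FAT3, an atypical cadherin, was the one long intron that rose, by 0.57 (SE 0.140, adjusted p = 0.0087). Its relative use was 179%, 173%, 128.5% and 188% at 48 hr and 282.5%, 250%, 236% and 262% at 96 hr in the same order of groups. At 24 hr it was 226% to 278% in replicate 1 and 214% to 239% in replicate 2, so 48 hr was the set that stood apart. The largest fall, of 2.56 (SE 0.542, adjusted p = 0.00114), was in the noncoding RNA DLEU1, from 8 to 13 reads per library at 48 hr to 0 to 4 at 96 hr. TMEM161B-AS1, also noncoding, fell by 1.75 (adjusted p = 0.0211), from 100% to 168% to 18.3% to 57.1%.

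KHDRBS2, an RNA-binding protein of the STAR family, fell by 1.25 (adjusted p = 0.0143), from 36.5% to 79.6% at 48 hr to 14.2% to 26.7% at 96 hr. FOXN3, a forkhead repressor, fell by 0.52 (adjusted p = 0.0355), from 112% to 137% to 72.6% to 88.1%. PTK2, the focal adhesion kinase, fell by 0.45 (adjusted p = 0.0314), from 75.9% to 87.0% to 52.7% to 67.6%. PCDH7, a protocadherin, fell by 1.46 (adjusted p = 0.0353), but beside only 2 other introns and with overlapping times. Its values were 108% to 1800% at 48 hr and 16.0% to 108% at 96 hr. In the other 8 the 48 and 96 hr libraries did not overlap. These introns were called from the same libraries, so this is no separate support. At 24 hr TMEM161B-AS1 was at 72.5% to 179%, above its 96 hr values, and PTK2 at 48.6% to 72.5%, below its 48 hr values.

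**Figure D5:**
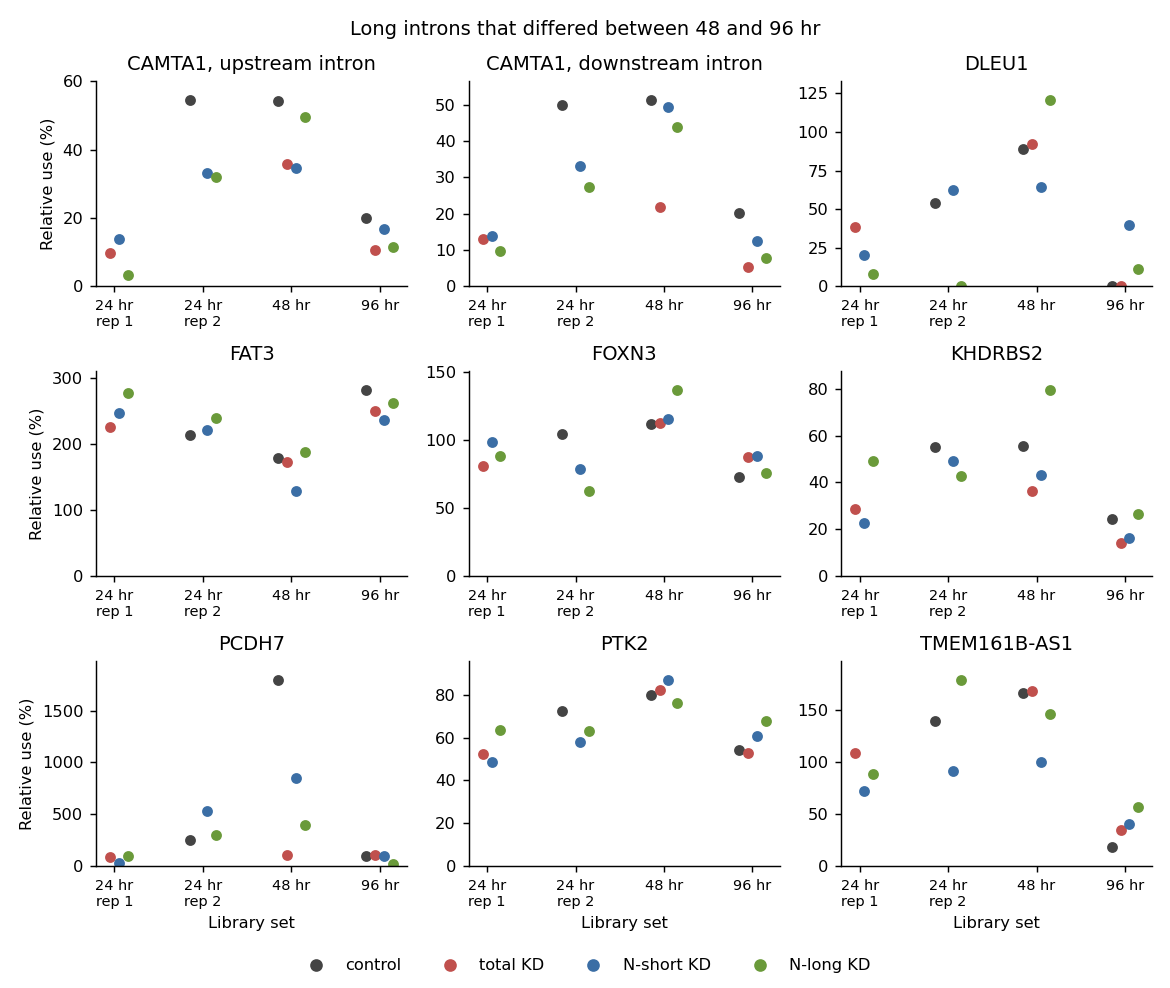
Relative use (percent, y axis) of the 9 long introns that differed between 48 and 96 hr, in each library set (x axis), with colours for the groups. FAT3 is higher at 96 hr and the others lower, and for CAMTA1 the 24 hr replicates lie apart.

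Among the long introns called in reads from 48 to 96 hr, more fell than rose. The calls in relative use had the same direction, with 1 higher and 8 lower, but the median log2 change over the 599 tested was 0.00. Of 614 tested for reads, 55 rose and 125 fell in edgeR, where 32.2% of all junctions passed, with 19639 up and 19102 down. The median log2 change in reads was -0.15, against -0.05 for introns of 10 to 100 kb, 0.00 for 1 to 10 kb and 0.01 for under 1 kb. The share that fell was 20.4% over 100 kb and 15.3% to 16.5% in the shorter classes, and the share that rose 8.96% against 10.8% to 18.1%. DESeq2 called 75 long introns, 19 higher and 56 lower. Genes of the culture moved between these sets as well. VIM was at 133 to 155 CPM at 48 hr and 395 to 740 CPM at 96 hr, and DNMT3B at 1110 to 1310 and 1760 to 2390 CPM. The part of these in the result was not tested, and fewer cells of a type and less RNA per cell cannot be told apart in bulk RNA. Of 6 neural markers, NEUROD1 and SOX1 were at 0 CPM in the HUES66 libraries, PAX6 at 0 to 0.293 CPM, STMN2 at 0 to 0.635 CPM, DCX at 1.56 to 5.93 CPM and TUBB3 at 4.35 to 10.6 CPM.

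By gene lists, which overlap, long introns were most numerous in neural adhesion and synaptic genes, with 132 introns in 58 of 86 genes and a median pooled relative use of 97.4%. Common fragile site genes held 64 in 22 of 33 genes (68.6%). Transcription and chromatin regulators held 76 in 44 of 81 (64.3%), kinase, phosphatase and GTPase regulators 82 in 50 of 105 (68.2%), and cytoskeleton and polarity genes 74 in 39 of 82 (67.6%). RNA-binding and splicing factors held 23 in 13 of 46 genes (104%). None of the lists had an intron called in relative use in any knockdown against control. From 48 to 96 hr the neural list had 1 lower of 74 tested (PCDH7), the RNA-binding list 1 lower of 12 (KHDRBS2) and the other lists 0. In the A375 fractions the median log2 ratio was 0.58 for 13 introns of RNA-binding factors, beside 0.06 for all 414 long introns. It was -0.05 to 0.14 in the fragile site, transcription, neural, kinase and cytoskeleton lists. In 7 genes of the list with recursive splicing reported in human brain, 14 long introns had 1829 reads and a median relative use of 40.4%, and 5 of them were tested with 0 calls. Only 2 of them had enough fraction reads (median log2 ratio -0.48).

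The authors' deposited tables of cassette exons compare each knockdown with control at each time. Between 249 and 398 of their events per table lie beside a long intron. Taking an adjusted p under 0.05 and a difference of at least 0.1, the authors' deposited table for total knockdown at 48 hr calls 1 of 337 such events (0.297%), where 0.164% of all 26800 events are called. It is a 44-nt exon of ZCCHC7, a zinc-knuckle RNA-binding protein, at chr9:37302188-37302231, next to an intron of 175245 nt, with a deposited inclusion difference of 0.516 and an adjusted p of 0.0389. Which group has the higher inclusion was not determined here. The other 8 of the authors' deposited tables call 0 events beside long introns.

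Junctions inside the long introns were also present. Of the 1196 introns, 1050 had at least 1 unannotated junction that leaves the 5′ splice site of the intron and ends within it. Such a junction with at least 20 reads was present in 111. The same counts were not made for shorter introns, so no trait of long introns can be read from them. CBR4, a carbonyl reductase, had 721 reads on an internal junction beside 120 on the 107305-nt intron, which is 601% of it. The noncoding AL157778.1 had 421 on 1 internal junction beside 297, and RIMS2, a presynaptic protein, had 452 beside 465. CMSS1 had 264 on its internal junction with most reads beside 2328, or 11.3%. CASC15, noncoding, had 132 beside 309 on the same measure. Nuclear A375 RNA gave 0 to 6 reads on these 5 junctions.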

How the data were processed

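Spliced reads were measured in 19 libraries of ribosomal-RNA-depleted RNA. The authors deposited, per library, raw counts of reads for each splice junction. STAR 2.7.1, SAMtools 1.9 and hg38 stand in the submitters' processing notes, and filters are not given in the sources used here. The authors' 9 deposited comparison tables give a signed difference in exon inclusion, and p-values with adjusted p-values, per the file headers. Their 69 per-library columns were not used. Junction files carry another GENCODE release in some names. GENCODE 29 was used here.

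Members, lists and comparisons were chosen with earlier results of these data known. The 14 doxycycline-treated libraries were fitted with edgeR 4.0.16 (R 4.3.3, TMM, filterByExpr, library set + knockdown, diffSpliceDGE for relative use, glmQLFTest for reads), with Benjamini-Hochberg adjustment over all junctions tested. The fits were also run on simulated data, and the outcome is not reported here. Library set pairs the libraries, since the labels put the 24 hr replicates in different library series. After removal of group means, libraries sharing a set correlated with a median of 0.45 (18 pairs, 87796 junctions), and libraries from unlike sets with -0.15 (55 pairs). The 24 hr replicates of N-short and N-long knockdown differed beyond sampling noise (chi-square per degree of freedom 2.52 and 2.43). Single libraries received no test. Ratios have exact conditional intervals and shares Wilson intervals (scipy 1.17.1).

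Introns named are the 10 with most reads, the 5 longest, those past an adjusted p of 0.05 in relative use, the 5 highest and 5 lowest fraction ratios, 5 per cell line, the RBFOX2 intron, those nearest the thresholds, and the 5 with most internal reads. Of the most-read and longest introns, 2 are not reported here. TCF7L2, UTRN and the tandem splice sites were chosen after their values were seen. Alternatives were other filters, size factors, DESeq2 1.42.0, limma 3.58.1, no block, added wild type, paired columns, left-out libraries, and other reference introns or read minimums. The first and later split and the comparison of introns before and after were added after the data were seen.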

Additional observations from a re-analysis of the deposited data

Results flagged for a closer look

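Among 48 groups of 4 libraries tested for a library apart from the others, 4 stood out, and chance alone flags about 1 in 20 groups. The relative use of the DLEU1 intron was 120.9% in N-long knockdown at 48 hr, while the other 3 N-long libraries had 0% to 10.96%. All 48 hr libraries were high, at 64.0% to 120.9%, so this library goes with its set. The FOXN3 intron was at 137.1% in N-long knockdown at 48 hr, while the other 48 hr libraries had 111.9% to 115.5%. The PCDH7 intron was at 16.0% in N-long knockdown at 96 hr, from 2 reads, while the other 96 hr libraries had 93.3% to 107.7%. The RBFOX2 intron was at 89.4% in N-short knockdown at 96 hr, while the other N-short libraries had 96.5% to 97.7%.

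The RBFOX2 intron differed between the isoform knockdowns, with a log2 relative use of -1.36 in N-long against N-short knockdown by edgeR's test of that difference.

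Outside the annotation, 1148 junctions over 100 kb had at least 20 reads. For 147 of them both splice sites are annotated in the same gene, for 14 in different genes, for 215 only 1 site is annotated, and for 772 neither is. A further 148400 of the 175021 unannotated junctions over 100 kb had 1 read.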

How the results depend on the processing

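Counts of long introns called in reads or relative use were within 1.5 times of the value given, except as follows, and the cause was not tested unless the setting removes introns or libraries. In relative use, N-long knockdown against control had 1 call (RBFOX2) with HUES66 wild type added and 1 with paired columns, in place of 0, and 0 to 1 when a library was left out. Between 96 and 48 hr there were 3 calls without the replicate block, in place of 9, and 4 to 9 when a library was left out (4 or 5 for 6 of these libraries). Without the control of 96 hr 2 of the 9 were kept. Without the block FAT3 had an adjusted p of 0.0696 and DLEU1 was not tested. The replicate block changed no knockdown call. In reads, total knockdown had 2 calls with HUES66 wild type added, 0 with DESeq2 and 0 to 1 with a library left out, and 96 against 48 hr had 75 with DESeq2 and 130 to 179 with a library left out, in place of 180. In the fractions, the median of 0.06 became 0.103 against the median of the other introns, 0.0547 with at least 50 reads and 0.0647 against introns up to 100 kb. The 2-fold counts were 14 and 11 of 218 with at least 50 reads. Later introns turned from -0.09 to 0.0134 against the median of the other introns. With at least 50 reads the cell line counts, higher and lower, were 9 and 25 in A375, 6 and 20 in HEK293, and 12 and 8 in HUES66. For the fractions and the lines, the shares of all introns with at least 50 reads were not computed. Median relative use against introns up to 100 kb was 58.9% in nuclear, 54.7% in cytoplasmic and 60.0% in total A375 RNA, 60.0% in HEK293 and 73.7% in HUES66. With at least 100 reads it was 84.7%, 80.4%, 84.4%, 81.8% and 96.3% in these, and 91.4% in control, 94.3% in total, 93.7% in N-short and 93.3% in N-long knockdown. Leaving out a library gave 71.3% to 75.2% in control, 73.0% to 74.8% in total, 71.2% to 74.3% in N-short and 69.5% to 72.2% in N-long knockdown. Of the alternatives for single introns, 231 kept direction and side of the threshold, 44 lost the call, 53 moved and 1 reversed. Depth limits these values, since 520 of 1196 introns had under 100 reads over 19 libraries and 599 could be tested for relative use.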
